A study of Danio rerio with 6 samples.

Results

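RNA from injured larval kidney was examined for 7 genes widely used to mark zebrafish leukocytes: the neutrophil genes mpx and lyz, the macrophage gene mpeg1.1, the pan-leukocyte genes lcp1, coro1a and ptprc, and the myeloid transcription factor gene spi1b. The 7 genes were picked by Ensembl identifier as known markers, in order to weigh neutrophil and macrophage RNA in the kidney. No measured value enters the choice rule, but the genes were chosen with earlier results of these data known. Shares of all genes tested, given beside them below, are therefore a description. They are 7 of the 32520 genes in the count table. Of the 7 genes, 5 had at least 1 count and 4 (mpx, lcp1, spi1b and ptprc) passed the filter on low counts and were tested. The other 3 could not be tested, and 2 of these, lyz and mpeg1.1, were listed at 0 in every library.

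The study asked how UPHD25, a prodrug of the histone deacetylase inhibitor PTBA, acts on the kidney during acute kidney injury (AKI). Larvae of the transgenic line Tg(PT:egfp), whose proximal tubules carry EGFP, were injected with gentamicin, an antibiotic toxic to tubule cells, at 3 days post-fertilization (dpf). At 2 days post injection (5 dpf) the injured larvae were kept for 24 h at 28°C in 1 µM UPHD25 with 1% DMSO (gent-AKI+UPHD25, 3 libraries) or in 1% DMSO alone (gent-AKI+DMSO, 3 libraries). Each library was made from the EGFP-positive pronephros dissected by hand from a pool of 100 larvae after DTT and collagenase I, so it is a pool and not an animal, and the cells were dissected rather than sorted. Both groups carry the transgene, the gentamicin injury and the DMSO, and no library of uninjured larvae was analysed here, so the values do not show what the injury itself did to these genes.

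Neutrophils and macrophages are the phagocytes of the innate immune system and enter injured tissue, including the kidney tubule after toxic injury. Neutrophils carry granules with peroxidase, lysozyme and proteases, whereas macrophages are marked by scavenger receptors, lysosomal proteases and the perforin-like protein Mpeg1. Both lineages depend on the transcription factor Pu.1, which spi1b encodes, and both carry the surface phosphatase CD45, encoded by ptprc, and the actin-bundling protein L-plastin, encoded by lcp1. Larvae of this age rely on innate immunity, since adaptive lymphocytes mature later. In RNA from a dissected tissue, fewer leukocytes and less RNA of these genes per leukocyte cannot be told apart.

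Gene totals ran from 10781071 to 30750026 counts per library. Replicate 1 was the deepest library of each group, with 30750026 counts for DMSO and 23328700 for UPHD25. The rest held at most 12326927. Levels are given below as CPM, that is, counts scaled to the TMM-normalized library size, and 3 counts, taken as the floor, stood for 0.10 to 0.289 CPM. gent-AKI+UPHD25 replicate 3 stood apart from the other libraries: its mean correlation with the others (Pearson, log2 CPM) was 0.919, against 0.939 to 0.953 for the rest, and its TMM factor was 1.21. Without it, the log2 fold change of UPHD25 over DMSO was -0.997 for mpx, -1.08 for lcp1, -0.90 for ptprc and -0.62 for spi1b, against -1.09, -1.27, -1.09 and -0.88 with all 6 libraries. Markers of the proximal tubule and nephron had a summed level of 344 to 642 CPM over 7 identifiers. Single markers were uneven: SLC13A1 had only 1 or 2 counts in replicates 2 and 3 of both groups, and pdzk1 ran from 6.55 to 68.8 CPM. In replicate 1, SLC13A1 had 59 counts after DMSO and 23 after UPHD25.

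The 4 measurable leukocyte genes were lower in every gent-AKI+UPHD25 library than in any gent-AKI+DMSO library, as were 7.46% of all genes tested. Mean levels after UPHD25 were 0.471 times those after DMSO for mpx, 0.414 times for lcp1, 0.467 times for ptprc and 0.543 times for spi1b. None of the 4 genes passed the threshold of 0.05 in edgeR's quasi-likelihood test after Benjamini-Hochberg adjustment over 17497 genes, a test that called 0 genes in all (0%), while 2186 genes had an unadjusted p under 0.05. DESeq2's Wald test and edgeR's likelihood ratio test called 3 of the 4, mpx, lcp1 and ptprc. These tests called 0.655% and 0.429% of their genes lower. DESeq2 called none of the 4 when DMSO replicate 2 or DMSO replicate 3 was left out.

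**Figure D1:**
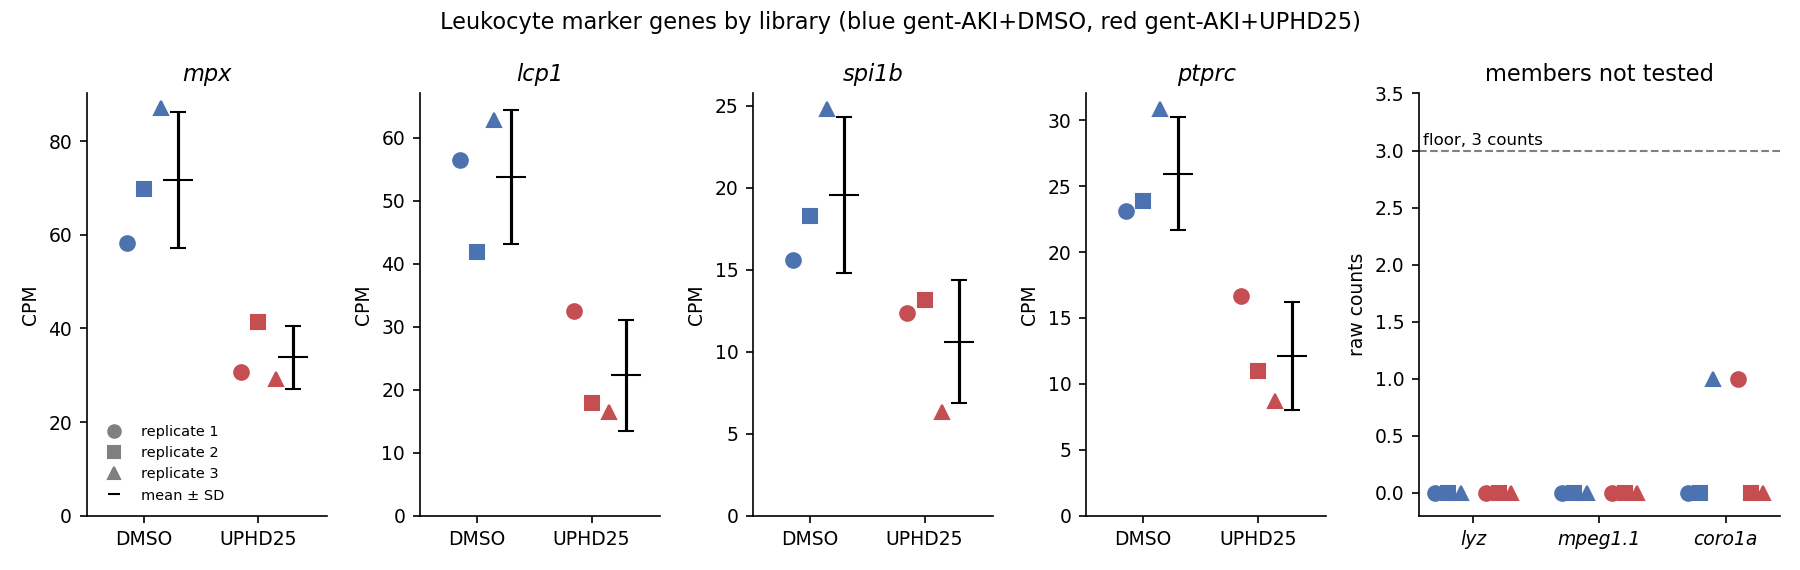
Levels of the leukocyte genes in each library, with CPM on the vertical axis for mpx, lcp1, spi1b and ptprc, raw counts for the 3 genes not tested, blue for gent-AKI+DMSO, red for gent-AKI+UPHD25, marker shape for the replicate number, and bars for the mean ± SD (n = 3). For each of the 4 tested genes all red points lie below all blue points, and coro1a, lyz and mpeg1.1 stay under the floor of 3 counts.

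The neutrophil gene mpx (ENSDARG00000019521) encodes the myeloid-specific peroxidase of neutrophil granules. In gent-AKI+DMSO replicates 1, 2 and 3 it stood at 58.3, 69.8 and 87.2 CPM (1745, 746 and 1047 counts), and in gent-AKI+UPHD25 replicates 1, 2 and 3 at 30.8, 41.4 and 29.2 CPM (695, 431 and 435 counts). The lowest DMSO library lay above the highest UPHD25 library, so the groups did not overlap. The means were 71.8 ± 14.5 CPM after DMSO and 33.8 ± 6.66 CPM after UPHD25 (SD, n = 3). The log2 fold change was -1.09 with a standard error of 0.22, and edgeR's quasi-likelihood test gave an unadjusted p of 0.00127 and an adjusted p of 0.207. Paired by replicate number, the log2 ratio of CPM was -0.92, -0.75 and -1.58.

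Lysozyme, a wall-degrading enzyme of neutrophils and other myeloid cells in zebrafish, is the product of lyz (ENSDARG00000057789), which had 0 counts in all 6 libraries. A row at 0 is given here only as listed. The neutrophil gene mpx was counted in every library, and npsn, another neutrophil gene described below, was counted at 249 to 2302 reads. Of 81 genes for cytosolic ribosomal proteins, which every cell uses, 1 (rpl32) was also listed at 0, as were 6439 of the 32520 genes (19.8%). With 3 counts taken as the limit that a count of 0 allows, that limit ran from 0.10 to 0.289 CPM over the 6 libraries, for counting error only.

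The macrophage gene mpeg1.1 (ENSDARG00000055290) had 0 counts in all 6 libraries as well. The name table lists 2 further identifiers as MPEG1, which were looked up after the zero was seen. One of them, ENSDARG00000078569, was at 0 throughout. The other, ENSDARG00000043093, stood at 111, 160.5 and 99.98 CPM after DMSO and at 130.1, 161.9 and 31.7 CPM after UPHD25. Only UPHD25 replicate 3 was low, and the groups overlapped (log2 fold change -0.20, standard error 0.51, adjusted p = 0.929, edgeR quasi-likelihood). Which of these rows a read from a near-identical mpeg1 copy would enter depends on how reads on several genes were counted, which is not given in the sources used here, so all 3 are uncertain.

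L-plastin, which bundles actin filaments in leukocytes, is encoded by lcp1 (ENSDARG00000023188). Its level was 56.5, 41.9 and 62.8 CPM in DMSO replicates 1, 2 and 3 (1691, 448 and 754 counts). In UPHD25 replicates 1, 2 and 3 it was 32.5, 17.9 and 16.4 CPM (733, 186 and 245 counts). UPHD25 replicate 1 was the highest treated library and still lay under every DMSO library. Means were 53.7 ± 10.7 CPM and 22.3 ± 8.85 CPM (SD, n = 3), with a log2 fold change of -1.27, a standard error of 0.30, an unadjusted p of 0.00292 and an adjusted p of 0.207 in edgeR's quasi-likelihood test. The log2 ratio by pair was -0.80, -1.23 and -1.93.

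CD45, a receptor-type tyrosine phosphatase on the surface of leukocytes, is encoded by ptprc (ENSDARG00000071437). After DMSO the 3 libraries held 23.1, 23.9 and 30.9 CPM (692, 255 and 371 counts). After UPHD25 they held 16.7, 11.0 and 8.73 CPM (377, 114 and 130 counts), all below the DMSO range. Means were 26.0 ± 4.28 CPM and 12.1 ± 4.11 CPM (SD, n = 3). The log2 fold change was -1.09 with a standard error of 0.28, and edgeR's quasi-likelihood test gave an unadjusted p of 0.00436 and an adjusted p of 0.207. By pair, the log2 ratio was -0.47, -1.12 and -1.82.

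Coronin 1A, an actin-binding protein of leukocytes, is encoded by coro1a (ENSDARG00000054610). It had 1 count in DMSO replicate 3, 1 count in UPHD25 replicate 1 and 0 counts in the other 4 libraries. Both groups were under the floor, so no fold change is given.

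The transcription factor Pu.1, which directs myeloid development, is encoded by spi1b (ENSDARG00000000767). It stood at 15.6, 18.2 and 24.8 CPM in DMSO replicates 1, 2 and 3 (467, 195 and 298 counts), and at 12.4, 13.2 and 6.31 CPM in UPHD25 replicates 1, 2 and 3 (279, 137 and 94 counts). The groups did not overlap, and the step from the lowest DMSO to the highest UPHD25 library was the smallest of the 4 genes as a ratio. The log2 ratio was -0.34 and -0.47 in pairs 1 and 2 and -1.97 in pair 3. The 95% Poisson interval of UPHD25 replicate 2 (11.1 to 15.6 CPM) reached into that of DMSO replicate 1 (14.2 to 17.1 CPM). Means were 19.6 ± 4.74 CPM and 10.6 ± 3.75 CPM (SD, n = 3), with a log2 fold change of -0.88, a standard error of 0.32, an unadjusted p of 0.0263 and an adjusted p of 0.309 in edgeR's quasi-likelihood test. The same fit lost the unadjusted threshold when DMSO replicate 3 was left out (log2 fold change -0.68, unadjusted p = 0.102) and when UPHD25 replicate 3 was left out (-0.62, unadjusted p = 0.0503).

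All 4 tested genes had an unadjusted p under 0.05 in the lower direction, against 3.41% of the genes tested, and all 4 had groups that did not overlap, against 7.46% of the genes tested. An exact permutation test of each gene's CPM gave p = 0.1, two-sided, which is the smallest that 3 libraries against 3 allow. The median log2 fold change of the 4 genes was -1.09, and that of all genes tested was 0.03. Of all genes tested, 2.22% had a log2 fold change at or below that of spi1b and 0.497% at or below that of lcp1. In DESeq2's Wald test, which called 0.655% of its genes lower, the adjusted p was 0.0052 for mpx, 0.0143 for lcp1, 0.0315 for ptprc and 0.179 for spi1b. In edgeR's likelihood ratio test, which called 0.429% lower, it was 0.00878 for mpx, 0.0143 for lcp1, 0.0308 for ptprc and 0.196 for spi1b.

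The calls of DESeq2 changed when single libraries were left out. Without DMSO replicate 2 or DMSO replicate 3 it called none of the 4 genes, with 0.0783% and 0.172% of its genes called lower. Without DMSO replicate 1 (0.197% called lower), UPHD25 replicate 2 (1.09%) or UPHD25 replicate 3 (0.546%) it called only mpx, and without UPHD25 replicate 1 (1.75%) it called mpx, lcp1 and ptprc. The direction was lower for each of the 4 genes in each of these fits. That follows largely from groups that did not overlap, so it adds no support.

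Summed over the 7 genes, the level was 153.6, 153.8 and 205.7 CPM in the DMSO libraries and 92.3, 83.5 and 60.7 CPM in the UPHD25 libraries. The means were 171 ± 30.0 CPM and 78.8 ± 16.3 CPM (SD, n = 3), a ratio of 0.461. Leaving out UPHD25 replicate 3, the lowest library, gave a ratio of 0.514. No test was made of this sum, to which mpx and lcp1 bring the most reads and lyz and mpeg1.1 none.

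Whether the leukocyte genes kept their proportions to each other was read from ratios within a library, which do not depend on library size. The ratio planned for this, lyz to mpeg1.1, could not be computed because both rows were at 0, and 7 other ratios were chosen after that was seen. The log2 ratio of mpx to ptprc was 1.33, 1.55 and 1.497 in the DMSO libraries and 0.88, 1.92 and 1.74 in the UPHD25 libraries. The group means differed by 0.05, less than the SD of 0.55 among the UPHD25 libraries (exact permutation test, p = 1). The ratio of lcp1 to ptprc differed by -0.18 (p = 0.4) and that of spi1b to ptprc by 0.21 (p = 0.7), both by exact permutation. For mpx against the macrophage genes marco and csf1ra, a neutrophil to macrophage comparison, the differences were 0.33 and -0.25 (p = 0.7 and 0.3, exact permutation). Both macrophage genes were themselves lower after UPHD25, with log2 fold changes of -1.24 and -0.80. Of 8 macrophage genes tested, 5 had a log2 fold change below 0 and 3 above it, among them IRF8 (0.11). The MPEG1 row with counts was at -0.20. No ratio to IRF8 or MPEG1 was computed, so the comparison covers only macrophage genes that were lower. The groups overlapped in all 7 ratios and the adjusted p was at least 0.817 (Benjamini-Hochberg over 7), which with 3 libraries a group does not show that the proportions were equal.

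**Figure D2:**
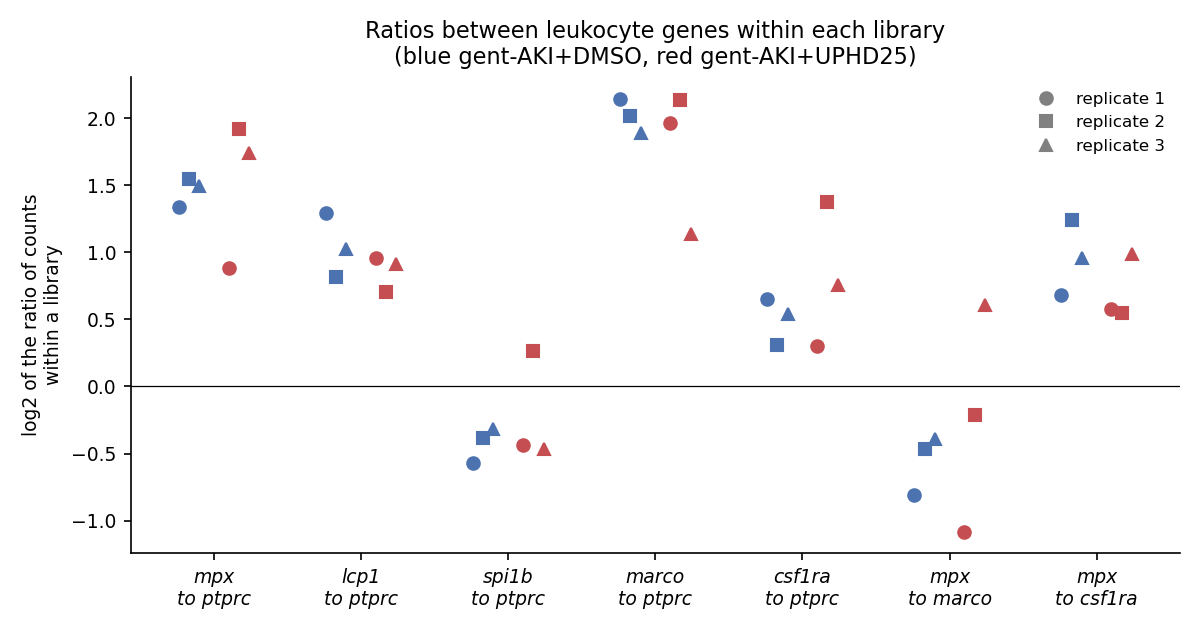
Log2 ratio of the counts of 2 leukocyte genes within each library, one column for each of 7 ratios, blue for gent-AKI+DMSO, red for gent-AKI+UPHD25 and marker shape for the replicate number. Red and blue points overlap in every column. The red points spread more widely for mpx to ptprc (SD 0.55 against 0.11) and mpx to marco (0.84 against 0.22). The same holds for spi1b (0.41 against 0.13), marco (0.53 against 0.13) and csf1ra to ptprc (0.54 against 0.17). It does not hold for lcp1 to ptprc (0.13 against 0.24) or mpx to csf1ra (0.25 against 0.28).

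The levels of the 4 tested genes were correlated with each other over the libraries. Over the 6 libraries the correlation of log2 CPM was 0.977 between lcp1 and ptprc, 0.908 between spi1b and ptprc, 0.896 between mpx and spi1b, 0.863 between mpx and ptprc, 0.827 between lcp1 and spi1b and 0.802 between mpx and lcp1 (Pearson). These values share the same 6 libraries and include the difference between the groups. Whether they differ from each other was not tested. Many other genes were closer to a marker gene than most of the other marker genes were. In likeness to mpx, of 17012 genes, spi1b had rank 258, ptprc 434 and lcp1 776. In likeness to lcp1, ptprc had rank 11, spi1b 646 and mpx 831. For ptprc and spi1b, the other marker genes had ranks from 21 to 751. Among 17012 genes with a mean of at least 1 CPM, the pair most like lcp1 was npsn (0.996), a gene for the neutrophil protease nephrosin, and si:ch211-209f23.6 (0.993). The pair most like ptprc was actr3 (0.998), which encodes a subunit of the actin-nucleating Arp2/3 complex, and TPM4 (0.993), a tropomyosin gene. Those most like spi1b were il1fma (0.998) and PLS3 (0.995), a plastin gene. Most like mpx were atpaf1 (0.993), for an assembly factor of mitochondrial ATP synthase, and adam10a (0.992), for a membrane protease. All of these nearest genes were themselves lower after UPHD25 without overlap between the groups (7.46% of all genes tested were). That follows largely from picking them for likeness to genes whose groups did not overlap, so it is no result about them. They were picked as the highest of 17012 genes over 6 libraries, so the values are not a test of shared cells or function.

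Likeness of pattern did not mean likeness of size. The nearest gene to mpx, atpaf1, had a log2 fold change of -0.27 (standard error 0.16) where mpx had -1.09, and PLS3 had -0.27 (0.18) where spi1b had -0.88. The nearest gene to lcp1, npsn, was close to it in size as well, at -1.29 (0.31) against -1.27 (0.30).

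Further leukocyte genes were taken from 4 lists of neutrophil, macrophage, pan-leukocyte and myeloid transcription factor genes, with symbols spelled as the name table gives them. A match was found for 10 of 12 neutrophil, 14 of 20 macrophage, 7 of 10 pan-leukocyte and 7 of 7 myeloid factor symbols. The macrophage list held mpeg1.2, a symbol for which no match was found. The MPEG1 row with counts described above (log2 fold change -0.20, groups overlapping) was not among the identifiers matched and is left out of the counts below. Whether it is mpeg1.2 was not worked out. Of 38 identifiers matched, 29 were tested, and 25 of these had a log2 fold change below 0 and 4 above it, where 8282 of all 17497 genes tested (47.3%) were below 0. None passed the adjusted threshold in edgeR's quasi-likelihood test. With all 6 libraries, DESeq2 called 2 lower, npsn and PTPN6, of the 34 it fitted, where it called 0.655% of all its genes lower. Neither was called without DMSO replicate 1, 2 or 3, or without UPHD25 replicate 2 or 3. Both were called without UPHD25 replicate 1, a fit that called 1.75% of its genes lower. Some of the 34 were given no adjusted p and could not be called. At an unadjusted p under 0.05, 13 of the 29 were lower (3.41% of all genes tested) and 1, cd74b, was higher (9.09% of all genes tested). The groups did not overlap for 13 in the lower direction, 44.8% against 7.46% of all genes tested, and for 1 in the higher direction (10.4% of all). Their median log2 fold change was -0.65, against 0.03 for all genes tested. Without UPHD25 replicate 3 the median was -0.52 and 10 of the 29 were lower at an unadjusted p under 0.05 (3.41% of all genes in that fit), and without DMSO replicate 3 it was 5 of the 29 (2.13% of all).

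Of the neutrophil genes beside mpx and lyz, 10 were tested. Of the 10, 9 had a log2 fold change below 0 (47.3% of all genes tested) and 4 also an unadjusted p under 0.05 (3.41%). The most abundant of them, MMP9, a matrix metalloproteinase gene of neutrophils that other injured tissue also expresses, stood at 722, 1091 and 1026 CPM after DMSO and at 476, 638 and 255 CPM after UPHD25. No library overlapped, and edgeR's quasi-likelihood fit gave -1.05 on the log2 scale (standard error 0.35, adjusted p = 0.269). The log2 fold change was -0.65 (0.45) for NCF1, a subunit of the phagocyte NADPH oxidase, and -0.53 (0.68) for mmp13a, a collagenase gene, and the groups overlapped for both. The nephrosin gene npsn, the neutrophil gene nearest to lcp1 in pattern, stood at 76.9, 61.5 and 80.5 CPM after DMSO and at 44.6, 23.9 and 20.4 CPM after UPHD25. DESeq2 gave it an adjusted p of 0.0136, the one call in this list by that test, which called 0.655% of all its genes lower. The call was lost in most DESeq2 fits with a library left out, as given above.

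Of the macrophage genes beside mpeg1.1, 8 were tested. Of these, 5 had a log2 fold change below 0, 4 of them with an unadjusted p under 0.05, and 3 had one above 0. Over all genes tested, 47.3% were below 0 and 3.41% were lower at an unadjusted p under 0.05. The scavenger receptor gene marco stood at 102.3, 96.4 and 114 CPM after DMSO and at 65.1, 48.1 and 19.2 CPM after UPHD25, without overlap (log2 fold change -1.24, standard error 0.39, adjusted p = 0.248, edgeR quasi-likelihood). The log2 fold change was -0.85 (0.28) for ctss2.1, a cathepsin S gene, and 0.11 (0.46) for IRF8, a transcription factor gene needed for macrophages in zebrafish, whose UPHD25 libraries ran from 27.3 to 104.4 CPM around the DMSO range of 47.0 to 60.9 CPM. The one gene higher at an unadjusted p under 0.05, cd74b, for the invariant chain of antigen presentation, was at 0.187 to 0.749 CPM after DMSO and 0.806 to 2.21 CPM after UPHD25, from 2 to 38 counts a library. Listed at 0 in every library were 3 genes of this list, c1qa, c1qb and ccl34b.1.

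All 6 pan-leukocyte genes tested beside lcp1, coro1a and ptprc had a log2 fold change below 0 (47.3% of all genes tested). An unadjusted p under 0.05 was seen for 4 of them (3.41% of all genes tested were lower at that level). The small GTPase gene rac2, needed for neutrophil movement, was at 37.7, 37.5 and 46.7 CPM after DMSO and at 25.6, 27.3 and 24.6 CPM after UPHD25. It was lower by a log2 fold change of -0.65, with a standard error of 0.17 (adjusted p = 0.214, edgeR quasi-likelihood). The log2 fold change was -0.93 (0.43) for PLEK, a substrate of protein kinase C in blood cells, and -0.46 (0.26) for ARPC1B, a subunit of the Arp2/3 complex. DESeq2 called 1 of the list, PTPN6, a phosphatase gene of blood cells (log2 fold change -1.07, adjusted p = 0.0328). That test called 0.655% of all its genes lower. The PTPN6 call was likewise lost in most DESeq2 fits with a library left out.

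Of the myeloid transcription factor genes beside spi1b, 6 were tested and 1, spi1a, was lower at an unadjusted p under 0.05 (3.41% of all genes tested). This second Pu.1 gene stood at 15.3, 14.03 and 22.0 CPM after DMSO and at 13.0, 8.46 and 5.98 CPM after UPHD25, a log2 fold change of -0.90 (standard error 0.33, adjusted p = 0.307, edgeR quasi-likelihood) beside -0.88 for spi1b. The most abundant of the list, CEBPB and CEBPA, which many tissues express, had log2 fold changes of -0.01 (0.38) and -0.34 (0.19), with overlapping groups.

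Genes used to describe macrophage activation were read from a separate list, of which 6 were tested. Of the 6, 5 had a log2 fold change below 0 (47.3% of all genes tested). In edgeR's quasi-likelihood test 0 of them had an unadjusted p under 0.05, while DESeq2's Wald test gave tnfb 0.0404. The median log2 fold change of the 6 was -1.02. The inflammatory cytokine gene il1b was at 325, 596 and 369 CPM after DMSO and at 214, 422 and 94.6 CPM after UPHD25, with overlap (log2 fold change -0.82, standard error 0.50). The log2 fold change was -0.13 (0.22) for ARG2, an arginase gene, and 0.13 (0.34) for tgfb1a. It was -1.33 (1.03) for tnfa and -1.22 (0.65) for tnfb, cytokine genes whose groups overlapped. For IL10, an anti-inflammatory cytokine gene, it was -1.34 (0.63), at 1.17 to 2.15 CPM after DMSO and 0.134 to 0.974 CPM after UPHD25. The IL10 groups did not overlap, as was so in the lower direction for 7.46% of all genes tested. Only 2 reads of IL10 were found in UPHD25 replicate 3, under the floor of 3, so its fold change is uncertain. Lymphoid markers were low: of 10 identifiers, 4 were tested, 2 (lck and cd4-1) were at 0, and cd79a, IKZF1 and RAG1 had log2 fold changes of -0.52 (0.74), -0.76 (0.48) and -0.94 (0.41). In edgeR's quasi-likelihood test 1 lymphoid gene had an unadjusted p under 0.05, the interleukin 7 receptor gene il7r, named after its values were seen. It was higher (9.09% of all genes tested were at that level), at 0.187 to 0.602 CPM after DMSO and 0.940 to 1.83 CPM after UPHD25. Its 2 reads in DMSO replicate 2 were under the floor. DESeq2's Wald test gave unadjusted p of 0.0253 for il7r, 0.0402 for RAG1 and 0.0321 for PAX5, a gene edgeR left untested. PAX5 was higher (log2 fold change 2.16 in DESeq2). Neither test called any lymphoid gene after adjustment. The summed lymphoid level was 17.6 to 34.1 CPM after DMSO and 9.53 to 33.7 CPM after UPHD25.

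Markers of other cells that the dissected tissue could hold also differed between libraries. The summed level of 3 exocrine pancreas genes was 4614 to 7300 CPM after DMSO and 1349 to 4443 CPM after UPHD25. This was a ratio of 0.435 with no overlap, as for the sum of the 7 leukocyte genes. The gene prss1 brings most of that pancreas sum. Taken singly, prss59.1 overlapped between the groups (333 to 1081 CPM after DMSO and 61.4 to 345 CPM after UPHD25). The ratio was 0.560 for 4 erythroid, 0.698 for 5 liver and 0.716 for 3 skeletal muscle identifiers. The muscle sum was 5482 to 6196 CPM after DMSO and 2736 to 5325 CPM after UPHD25, again with no overlap. Taken singly, its most abundant genes did overlap: ckmb (3669 to 4467 CPM after DMSO, 2008 to 3685 after UPHD25) and myhz2 (1285 to 1883 and 723 to 2051). The ratio was 0.941 for 7 proximal tubule and nephron and 0.930 for 4 endothelial identifiers. For 5 epidermal identifiers it was 1.47, with 1967 CPM in UPHD25 replicate 3 and 624 to 771 CPM in the other 5 libraries. The part of these tissues in the lower leukocyte levels was not tested.

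**Figure D3:**
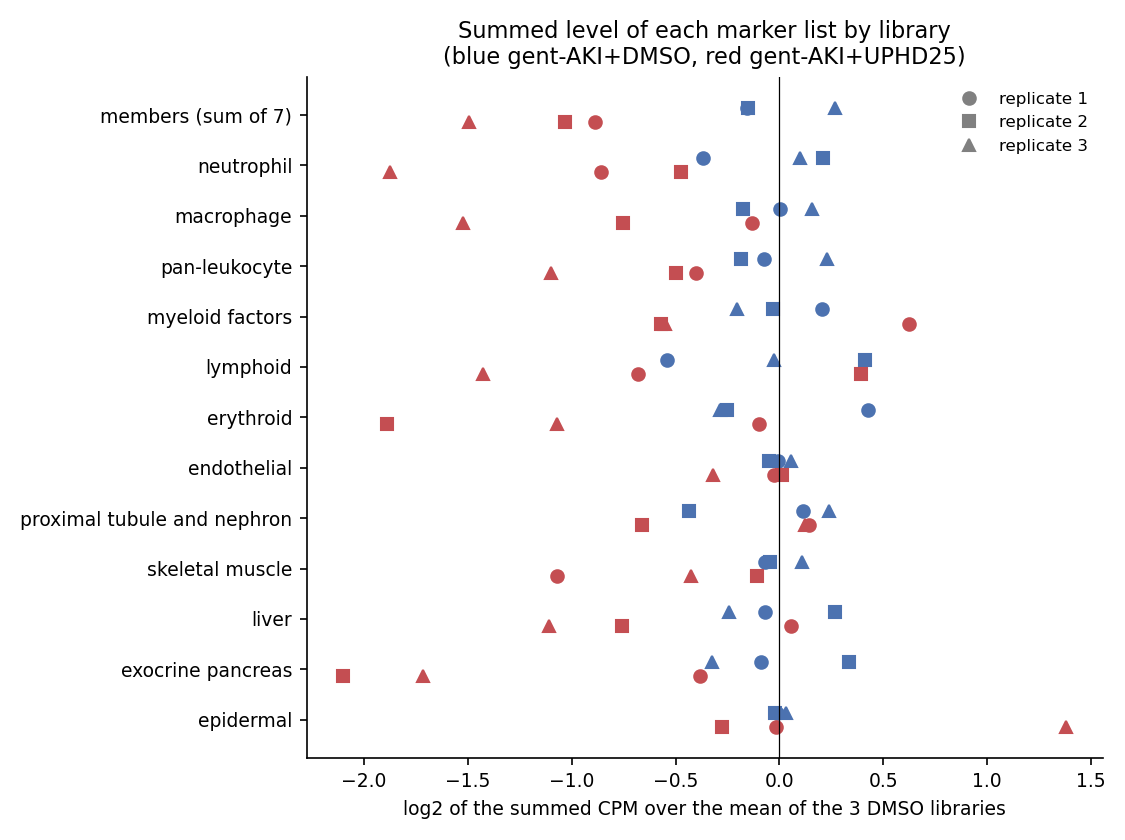
Summed CPM of each marker list in each library on a log2 scale relative to the mean of the 3 gent-AKI+DMSO libraries, one row a list, blue for gent-AKI+DMSO, red for gent-AKI+UPHD25 and marker shape for the replicate number. The red points lie left of all blue points for the 7 leukocyte genes, the neutrophil and pan-leukocyte lists, skeletal muscle and exocrine pancreas. MMP9 brings most of the neutrophil sum and prss1 most of the exocrine pancreas sum. Taken singly, the muscle genes ckmb and myhz2 overlapped between the groups. Groups overlap for the macrophage list (ratio of means 0.618) and the myeloid factor list (0.967). Endothelial and proximal tubule points mix, and UPHD25 replicate 3 stands far right for epidermal genes.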

How the data were processed

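RNA-seq of dissected pronephros was taken from 6 pools of larvae. The authors aligned paired-end reads to danRer11 with HISAT2 2.1.0, counted reads per gene with featureCounts and deposited raw counts, 1 column per library. The annotation release, the strand option and the handling of reads on several genes are not given in the sources used here.

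Groups and replicate numbers came from the sample titles. The 3 pools per group are described as biological replicates. Identifiers were matched to symbols by a name table (29201 of 32520, and 7 of 7 for the marker genes). The marker genes and gene lists were chosen with earlier results of these data known. Genes named beside the 7 were the 2 most correlated with each, any list gene past the threshold, and the most abundant of each list (3 for leukocyte lists, 2 for others where needed). Outside this rule, spi1a, cd74b, il7r, PAX5, PTPN6, tnfa, tnfb, IL10, csf1ra, SLC13A1, pdzk1 and the extra MPEG1 rows were named after their values were seen. The same holds for genes named for a row at 0.

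Counts were tested with edgeR 4.0.16 (R 4.3.3): TMM, filterByExpr (minimum count 10, minimum total 15), glmQLFit and glmQLFTest with group only, two-sided, Benjamini-Hochberg over 17497 genes, threshold 0.05. Log2 CPM used a prior count of 2. Single values were compared by exact permutation (scipy 1.17.1). The steps were tested on simulated data. Alternatives were DESeq2 1.42.0, edgeR's likelihood ratio test, other scalings and filters, a replicate block and each library left out. Sample titles number the replicates and state no pairing. Deviations from the group mean correlated between same-numbered libraries (r = 0.495, 0.293 and 0.211), but libraries with different numbers were not compared in this way. Pairing by number is therefore an assumption, used for the ratios by pair and the replicate block and not in the main test. Intervals and floors cover counting error only.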

Additional observations from a re-analysis of the deposited data

How the results depend on the processing

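Over 88 alternative values, 22 for each of the 4 tested marker genes, the direction was lower in each, 70 stayed on the same side of the threshold and 18 passed it. The shared direction follows largely from groups that did not overlap for these genes under any scaling, so it adds no support. edgeR's quasi-likelihood test called 0 marker genes and 0 genes in all under the other scalings and filters and under the replicate block, where 2722 genes had an unadjusted p under 0.05. Leaving out 1 library in that test gave 0 to 1 genes and 0 marker genes. DESeq2's Wald test called 639 genes (518 higher, 121 lower) and 3 marker genes, and the likelihood ratio test 558 genes and 3 marker genes. Chosen after seeing the data, DESeq2 with the replicate block called 767 genes and 3 marker genes, the likelihood ratio test with the replicate block 1274 genes and 3 marker genes, and DESeq2 called 175, 136 and 252 genes without DMSO replicates 1, 2 and 3 and 1298, 660 and 251 without UPHD25 replicates 1, 2 and 3, with 0 to 3 marker genes. The cause of these differences was not tested. The summed level had a ratio of 0.421 to 0.514 with 1 library left out, and 0.493 with library totals, which moved the median over all tested genes from 0.03 to 0.15 (log2). The lyz to mpeg1.1 ratio could not be computed under any setting. The rows of coro1a, lyz and mpeg1.1 lie under the floor of 3 counts, and why was not tested.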

Other observations

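The mfap4 family, which includes a marker used for zebrafish macrophages, was looked up after its values were seen, so its counts are a description. Which of its identifiers are expressed in macrophages was not tested. It holds near-identical copies, and how shared reads were counted is not given in the sources used here, so each value is uncertain. Of 15 identifiers, 10 were tested, 9 had a log2 fold change below 0 (47.3% of all genes tested did), and 7 had groups that did not overlap (7.46% of all genes tested did so in that direction). Their median log2 fold change was -1.60. The gene mfap4.7 stood at 19.5, 38.6 and 14.4 CPM after DMSO and at 2.17, 5.10 and 6.38 CPM after UPHD25, a log2 fold change of -2.42 (standard error 0.50, adjusted p = 0.207 in edgeR's quasi-likelihood test and 0.000151 in DESeq2). The gene mfap4.8 stood at 47.5, 88.9 and 61.3 CPM after DMSO and at 7.48, 24.9 and 23.1 CPM after UPHD25. In both genes UPHD25 replicate 1 was the lowest library, where lcp1, ptprc and marco were at their highest among the UPHD25 libraries. DESeq2 called 6 of the family lower, where it called 0.655% of all its genes lower. One identifier listed as MFAP4, ENSDARG00000090557, went the other way in 2 of 3 pairs, at 34.4, 45.1 and 8.19 CPM after UPHD25 against 18.9, 26.5 and 38.5 CPM after DMSO.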
